A study of Bos taurus with 8 samples.

Results

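Cytosolic ribosomal proteins are the protein part of the ribosome, and their transcripts were followed here in granulosa cells of dairy cows kept under heat stress (HS) or pair-fed at moderate temperature (PF). The genes were found by symbol: every RPL or RPS symbol with a number, the stalk genes RPLP0, RPLP1 and RPLP2, and RPSA, without the S6 kinases. This gave 82 genes out of 19901 symbols on the array. Of these, 49 belong to the large (60S) and 33 to the small (40S) subunit, and 7 are paralogs (RPL3L, RPL7L1, RPL10L, RPL22L1, RPL26L1, RPS27L and RPS4Y1). Their symbols stood on 105 of 26773 transcript clusters, a cluster being the set of probes read out as 1 transcript. For each of the 19 symbols with several clusters, the cluster with the highest mean signal was taken. The difference between HS and PF played no role in this choice.

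Lactating, non-pregnant German Holstein cows were allocated at random to HS (n = 4) or PF (n = 4), and each cow gave 1 Bovine Gene 1.0 ST array. HS cows stood in a climate chamber for 96 h at 28°C and 52% relative humidity, a temperature-humidity index of 76. PF cows were kept for the same time at 15°C and 64% relative humidity, an index of 60, with feed restricted in proportion to the intake of the HS cows. All 8 cows received 500 µg prostaglandin F2α 72 h before slaughter and 100 µg of a GnRH analog 49 h later, so follicles of both groups were collected after an induced LH surge. Mural granulosa cells were scraped from the opened wall of the largest follicle. No sorting of cells is described, and fewer cells of a type and less RNA per cell cannot be told apart in such samples.

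A ribosome joins a small subunit, which reads the mRNA, with a large subunit, which forms the peptide bond and releases the growing chain through an exit tunnel. Ribosomal proteins are made in matched amounts from many unlinked genes. Their mRNAs start with a run of pyrimidines, the TOP motif, through which the mTOR kinase and the RNA-binding protein LARP1 control translation. Because the transcripts are abundant in every cell type, several of them serve as reference genes in PCR. In the preovulatory follicle, the LH surge ends the proliferation of granulosa cells and starts their conversion to luteal cells.

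RPLP0 and RPS18 were candidate reference genes in the qPCR methods of the study. Their primers are shown because they identify the ribosomal protein transcripts that were considered as a yardstick between HS and PF. Capitals mark the last 5 bases at the 3′ end, where the polymerase starts to extend. The qPCR values were not used here.
RPLP0 forward: tggttacccaaccgtcgcatCTGTA
RPLP0 reverse: cacaaaggcagatggatcagCCAAG
RPS18 forward: gaggtggaacgtgtgatcaCCATT
RPS18 reverse: tgtatttcccgtccttcacGTCCT

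On the arrays, the log2 signal of RPS18, a protein of the head of the small subunit, was 10.17, 9.94, 9.97 and 10.05 in PF 1 to 4 and 9.70, 9.72, 9.77 and 9.66 in HS 1 to 4. Every HS array lay below every PF array. The log2 fold change (HS minus PF) was -0.32 ± 0.089 (SE). The test was limma, a linear model whose variances are moderated across all clusters, and it put RPS18 at an unadjusted p under 0.05 but at an adjusted p of 0.683. The signal of RPLP0, the scaffold of the stalk to which elongation factors bind, was 11.01, 10.64, 10.62 and 10.72 in PF and 10.49, 10.51, 10.49 and 10.52 in HS. The groups did not overlap here either, and PF 1 stood above the other PF arrays. The log2 fold change of RPLP0 was -0.24 ± 0.11 (SE). Its limma p was 0.052 before and 0.683 after adjustment, so RPLP0, unlike RPS18, missed 0.05 before adjustment. The exact two-sided permutation test gave p = 0.029, the smallest value that 4 against 4 arrays allow. Any gene whose groups do not overlap gets this value. That exact p is the same for the other genes without overlap named below. Of the other candidate reference genes, TBP had a log2 fold change of -0.01 and B2M one of -0.60.

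Most cytosolic ribosomal protein transcripts were lower in HS, by a small amount. Of the 82 genes, 77 had a lower mean in HS, against 54.0% of all clusters, and the share was alike in the large (46 of 49) and the small subunit (31 of 33). The median log2 fold change was -0.25, a signal 16.1% lower in HS, with quartiles of -0.37 and -0.11. Over all clusters it was -0.02. Medians were -0.28 for the large and -0.23 for the small subunit. Bright clusters as a whole did not share the direction: among the 3536 clusters with a mean log2 signal of at least 8, 34.0% were lower in HS and the median was 0.11, while 61 of the 62 members at that signal were lower.

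An unadjusted p under 0.05 in limma, lower in HS, was reached by 34 of 82 genes (41.5%), against 2.81% of all clusters. They comprised 21 genes of the large and 13 of the small subunit. The genes described below without overlap between groups were among them, and so were RPS6, RPL27A and RPL22, whose groups overlapped. None was higher in HS at that p, against 4.39% of all clusters. The groups did not overlap, with all HS arrays lower, in 32 genes, against 2.0% of all clusters. No gene had all HS arrays higher, against 2.64% of all clusters. After Benjamini-Hochberg adjustment over the array, 0 members passed 0.05 in limma and 0 in the one-way analysis of variance without moderation. The analysis of variance put 35 members under an unadjusted p of 0.05, and 3.14% of all clusters under it with a lower mean in HS. The lowest adjusted p of a member in limma was 0.641. The thresholds of the study's methods, a fold change of more than 1.5 in either direction together with p under 0.05 before adjustment, were passed by RPSA and RPS12, 2 of 82 against 0.627% of all clusters in that direction.

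**Figure D1:**
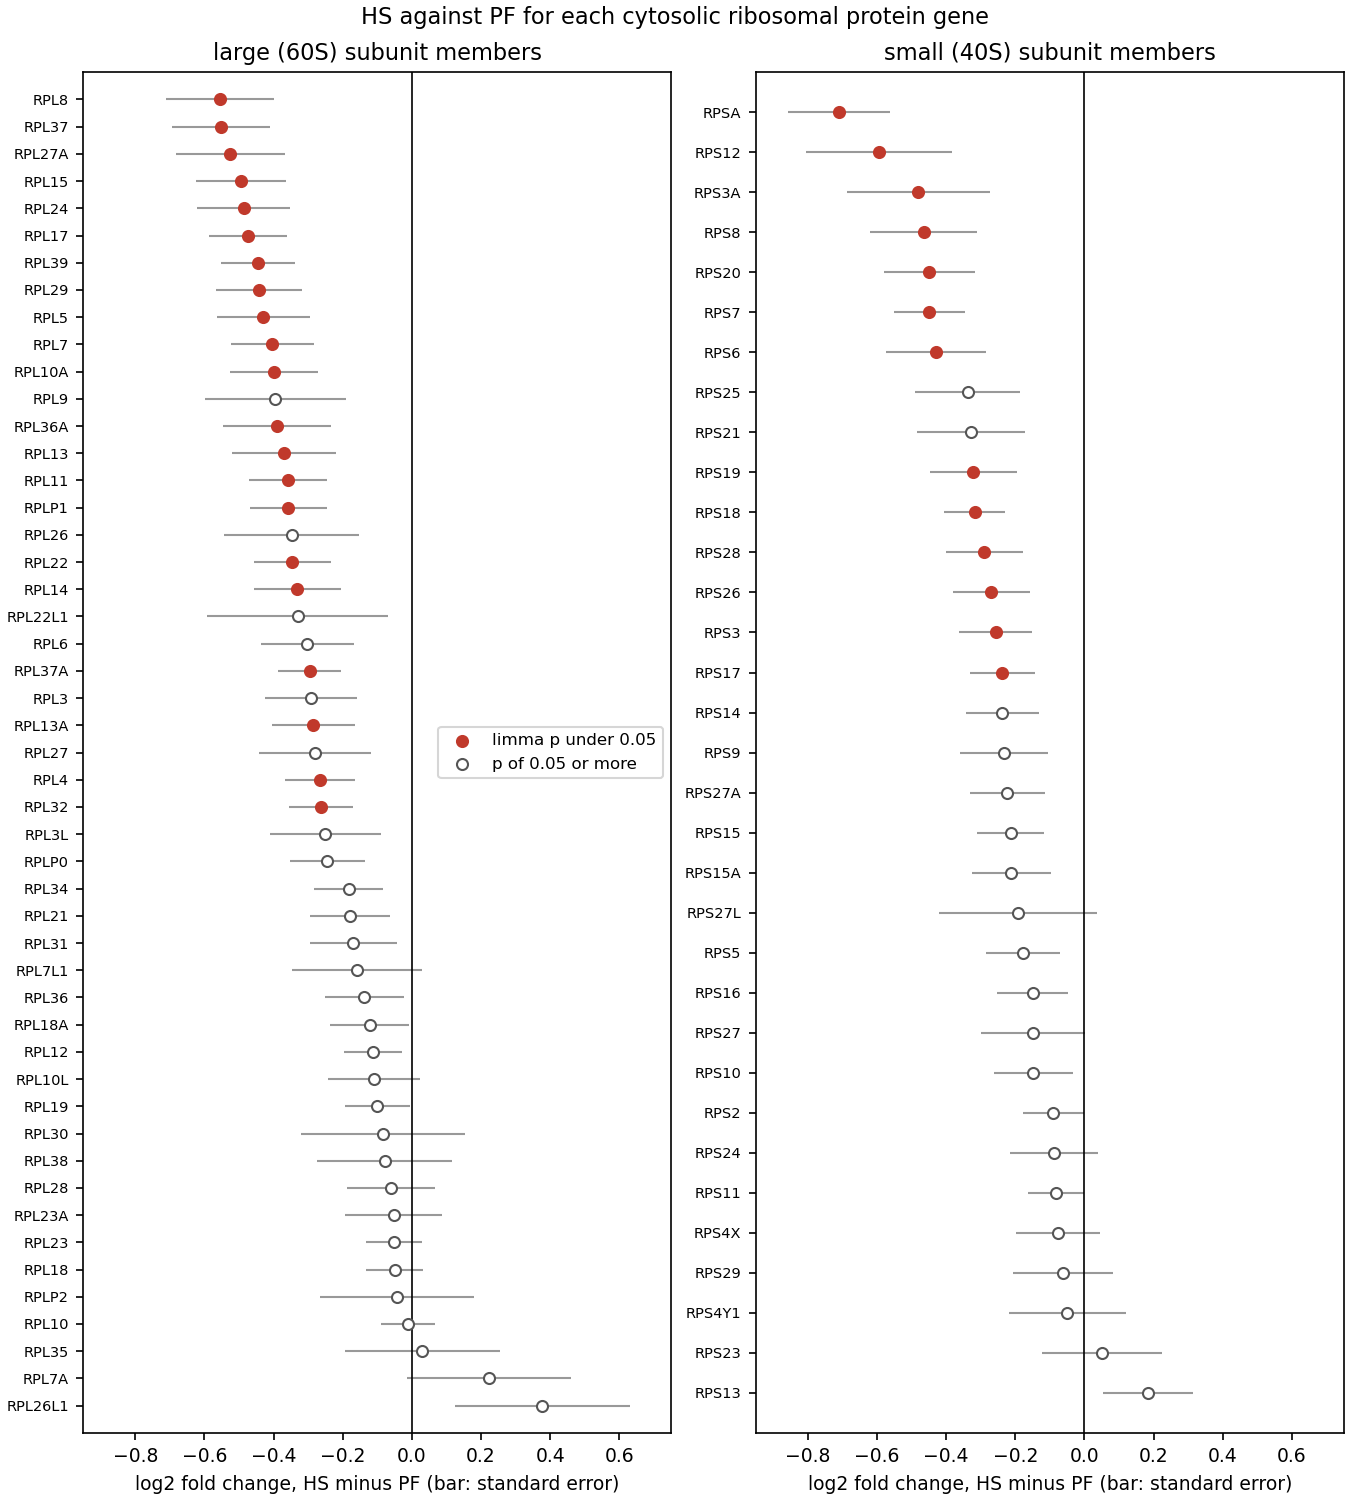
Log2 fold change (HS minus PF, x axis) of each cytosolic ribosomal protein gene, sorted within the large (left) and small subunit (right), with the standard error as a bar and filled points for an unadjusted limma p under 0.05. The points of 77 of 82 genes lie left of 0, and the filled points (34 genes) all do.

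The shift was visible in the mean over the 82 genes on each array. It was 9.207, 8.982, 9.002 and 9.011 in PF 1 to 4 and 8.743, 8.824, 8.838 and 8.820 in HS 1 to 4. All HS arrays were below all PF arrays, PF 1 was set apart at the top and HS 1 at the bottom. The PF mean was 9.05 ± 0.11 (SD, n = 4). The HS mean was 8.81 ± 0.043 (SD, n = 4). The mean over the large subunit was 9.08, 8.88, 8.85 and 8.90 in PF and 8.62, 8.70, 8.71 and 8.69 in HS. For the small subunit it was 9.40, 9.14, 9.22 and 9.18 in PF and 8.92, 9.01, 9.02 and 9.01 in HS, so neither subunit showed an overlap. No test was made on these means, since their genes were chosen together.

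**Figure D2:**
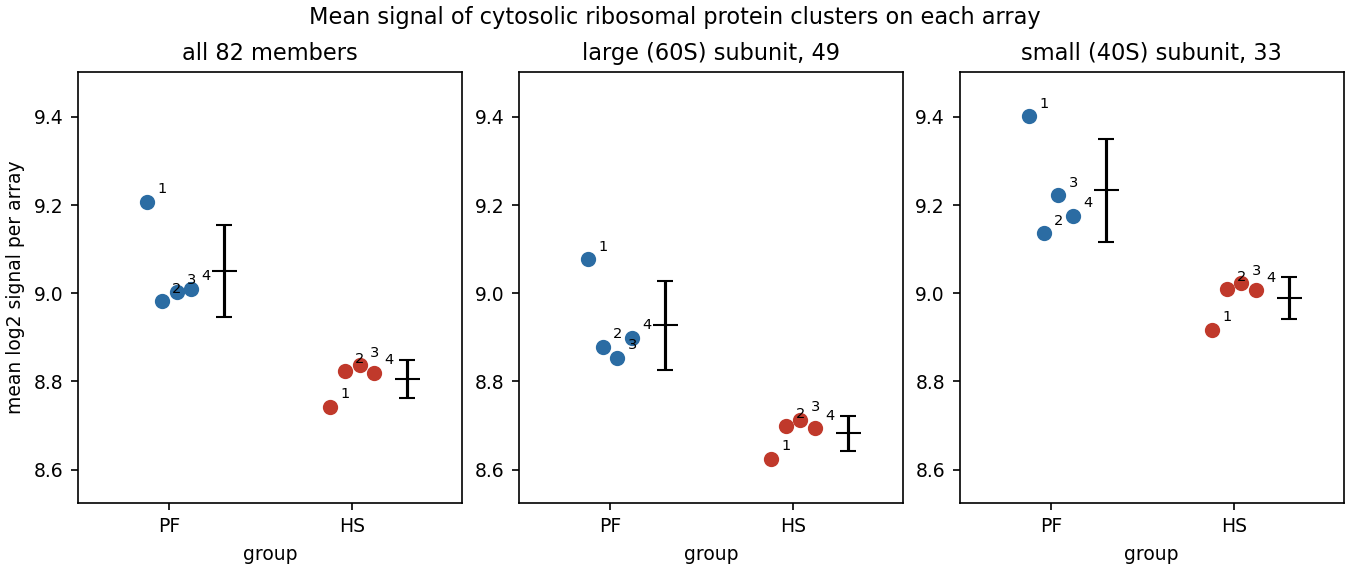
Mean log2 signal (y axis) over all cytosolic ribosomal protein genes, the large and the small subunit on each array (numbered points), with the group mean and SD (bars, n = 4) beside the points. PF arrays lie between 8.98 and 9.21 for all 82 genes and HS arrays between 8.74 and 8.84.

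The arrays did not contribute equally. PF 1 had the highest signal of the 8 arrays for 49 members, followed by PF 3 with 15, and HS 1 had the lowest for 34. Setting each HS array against each PF array, between 58 and 75 of the 82 members were lower in the HS array in all 16 pairs. These pairs share 8 arrays, and the matching share of all clusters is not given. The pair with the smallest median difference, -0.10, was HS 3 and PF 2. Without PF 1 and PF 3, 74 members were still lower, against 54.3% of all clusters, with a median of -0.19. In that repeat 20 had p under 0.05 in limma against 5.17% of all clusters in that direction. None then passed the methods' thresholds. With PF 1 and HS 1 left out, an alternative chosen after seeing the data, 71 members were lower, against 55.8% of all clusters. The median was -0.17, and 12 members had p under 0.05 against 1.73% of all clusters. With 1 array left out at a time, 68 members were lower in all 8 repeats, and 21 had p under 0.05 in all of them. The matching share of all clusters over the 8 repeats together is not given. In single repeats 51.8% to 57.1% of all clusters were lower, and 1.42% to 5.4% had p under 0.05 in that direction.

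**Figure D3:**
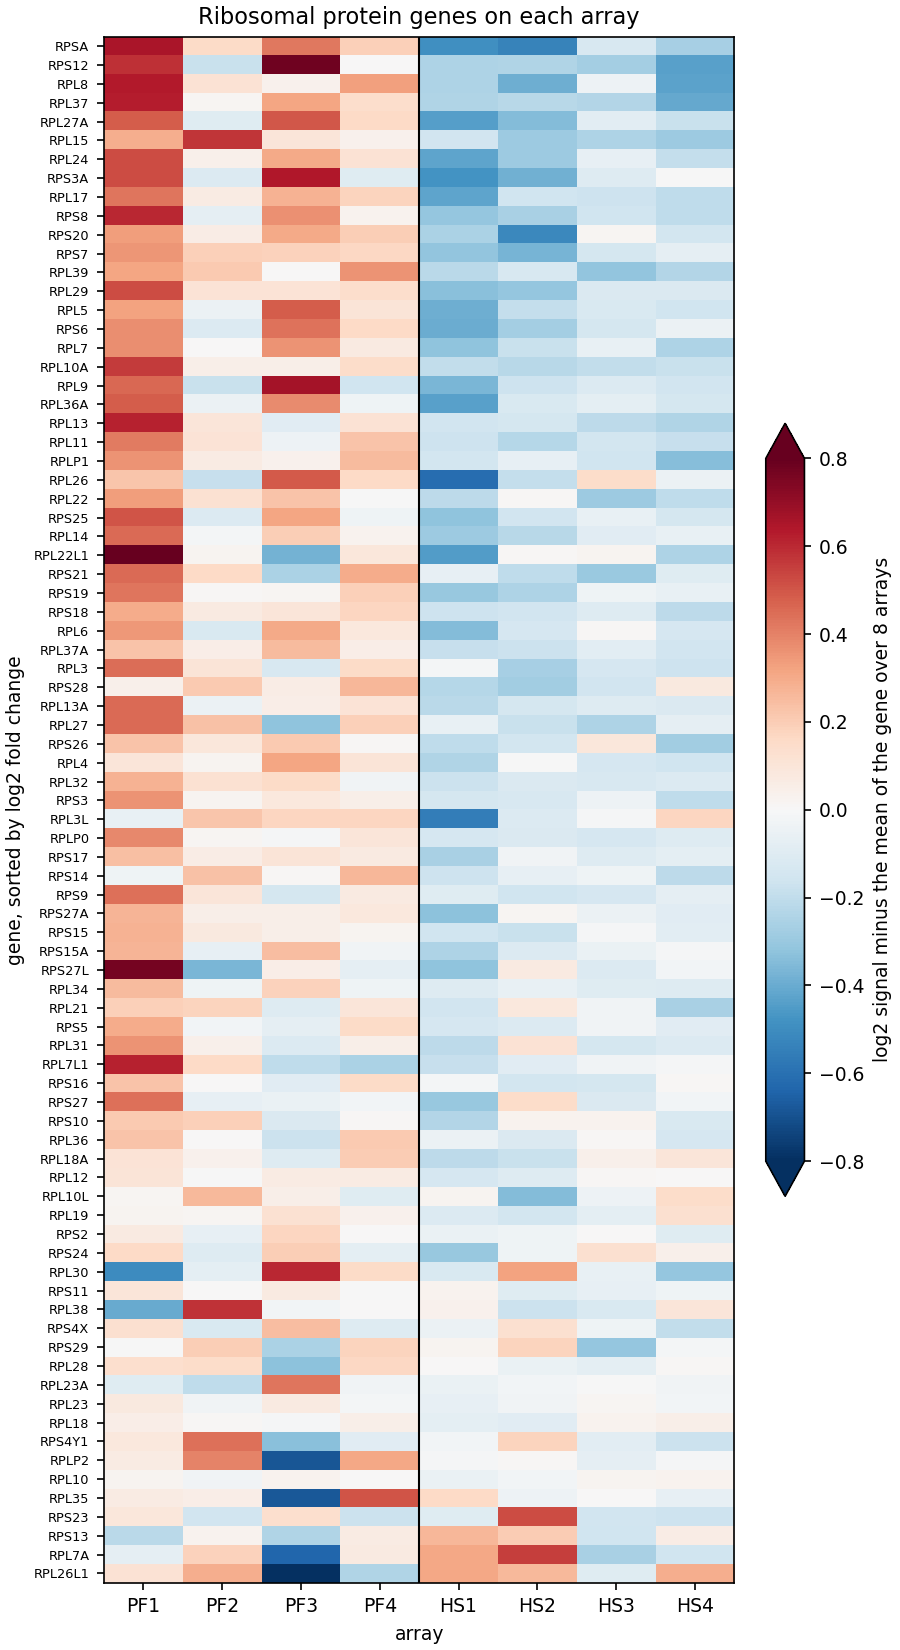
Log2 signal of each cytosolic ribosomal protein gene minus its mean over the 8 arrays (colour), with arrays as columns and genes as rows sorted by log2 fold change. Red prevails in the PF columns, most of all in PF 1, the highest array for 49 genes, and blue in the HS columns, with HS 1 the lowest array for 34.

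Granulosa markers were present on all arrays, with a mean log2 signal over 18 markers between 7.81 and 8.38 in PF and between 8.34 and 8.81 in HS. Of the 18, 13 had a higher mean in HS, and the median difference over the list was 0.37 on the log2 scale. The median signal of the list was 8.15. Among all clusters with a mean of at least 8, 66.0% were higher in HS, with a median difference of 0.11. At an unadjusted p under 0.05 in limma 3 were higher (FST, SERPINE2 and AMH), against 4.39% of all clusters. In the other direction 1 was lower (WT1), against 2.81%. FST alone passed the methods' thresholds. Markers of other cells of the follicle wall varied in a way that partly ran with the ribosomal proteins. The mean of 12 fibroblast and smooth muscle markers was 9.66, 7.38, 8.77 and 8.76 in PF and 6.88, 7.86, 8.86 and 7.53 in HS. All 12 had a lower mean in HS, against 54.0% of all clusters. Of the 12, 1 passed the methods' thresholds, against 0.627% of all clusters in that direction. The mean of 12 endothelial markers was 8.41, 5.68, 7.19 and 7.36 in PF and 5.56, 6.34, 7.78 and 6.05 in HS, with 11 of 12 lower in HS. As with the ribosomal proteins, PF 1 was highest and HS 1 lowest in both lists. All 26 leukocyte markers were lower in HS, with means of 6.01, 5.15, 6.86 and 5.49 in PF and 5.01, 5.01, 5.72 and 5.12 in HS. The methods' thresholds were passed by 5 of them (CD3D, RGS1, CD14, CORO1A and IL7R), against 0.627% of all clusters in that direction. After adjustment, 0 clusters on the whole array passed 0.05 in limma, these markers included. For theca markers the PF arrays ranged between 6.22 and 7.33 and the HS arrays between 6.64 and 7.27. Of these 7 markers, 4 were lower and 3 higher in HS. The methods' thresholds were passed by 1 of the 7, higher in HS, against 2.18% of clusters with a mean of at least 5. The mean of 7 erythrocyte markers, among them the globins, lay between 3.97 and 4.22 on all arrays, near the low end of the scale. The part of these cells in the ribosomal protein difference was not tested.

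In the small subunit, the lowest log2 fold change belonged to RPSA, which is needed for maturation of the small subunit and is also known as the laminin receptor precursor. Its cluster lies on chromosome 22 (12729703 to 12741653, plus strand, UMD3.1). The signal was 9.73, 9.23, 9.50 and 9.27 in PF and 8.59, 8.55, 8.95 and 8.82 in HS. The groups did not overlap, and HS 3 was the highest HS array. RPSA was 1.64-fold lower in HS, -0.71 ± 0.15 on the log2 scale (SE, limma adjusted p = 0.641), and it passed the methods' thresholds with any 1 array left out.

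RPS12, a protein at the head of the small subunit, had signals of 9.15, 8.39, 9.35 and 8.57 in PF and 8.32, 8.33, 8.30 and 8.13 in HS. The groups did not overlap, but PF 2 lay just above the HS arrays and the group difference came mostly from PF 1 and PF 3. Its log2 fold change was -0.59 ± 0.21 (SE, limma adjusted p = 0.683), a 1.51-fold difference at the edge of the methods' threshold, which was lost in 3 of 8 repeats with 1 array left out. Without PF 1 and PF 3 it was -0.21.

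RPS7, which is needed for assembly of the small subunit, had 9.47, 9.31, 9.30 and 9.28 in PF and 8.80, 8.74, 8.97 and 9.04 in HS. The PF arrays were close together and well above HS. The log2 fold change was -0.45 ± 0.10 (SE, limma adjusted p = 0.641). RPS20, at the head of the subunit, had 10.96, 10.68, 10.93 and 10.82 in PF and 10.37, 10.11, 10.64 and 10.48 in HS, without overlap and with HS 2 lowest (log2 fold change -0.45, limma adjusted p = 0.683). RPS6 is the substrate of the S6 kinases that act downstream of mTOR, and its signals were 10.24, 9.76, 10.30 and 10.03 in PF and 9.47, 9.59, 9.73 and 9.82 in HS. PF 2 lay within the HS range there, so the groups overlapped in 1 array (log2 fold change -0.43, limma adjusted p = 0.683). All 8 proteins assigned to the head (RPS3, RPS10, RPS12, RPS15, RPS18, RPS19, RPS20 and RPS29) were lower in HS, against 77 of 82 members. Their median was -0.29, against -0.25 for all members. An unadjusted limma p under 0.05 was reached by 5 of the 8, against 34 of 82 members.

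In the large subunit the lowest values were those of RPL8, which lies close to the site of peptide bond formation, and RPL37. RPL8 had 9.87, 9.34, 9.27 and 9.56 in PF and 8.98, 8.84, 9.19 and 8.80 in HS. PF 3 and HS 3 were near each other, and the groups did not overlap. The log2 fold change was -0.56 ± 0.16 (SE, limma adjusted p = 0.683). RPL37, on chromosome 20 (33667205 to 33669805, plus strand, UMD3.1), had 9.35, 8.73, 9.03 and 8.86 in PF and 8.48, 8.49, 8.48 and 8.30 in HS. The HS arrays were tight and all below PF (log2 fold change -0.55, limma adjusted p = 0.641). RPL15 had 8.04, 8.33, 7.85 and 7.79 in PF and 7.60, 7.46, 7.50 and 7.46 in HS, again without overlap, and here PF 2 was the highest array. Its log2 fold change was -0.49 (limma adjusted p = 0.641). The chosen RPL15 cluster lists a transcript on chromosome 2, and the cluster on chromosome 27, where the gene lies, differed by -0.33 (limma adjusted p = 0.683), with groups that overlapped. RPL27A at -0.52, RPL29 at -0.44 and RPL7 at -0.40 were also among the genes with p under 0.05 in limma.

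Proteins around the exit tunnel were much like the members as a whole. Of 9, 8 were lower, against 77 of 82 members, with a median of -0.27 against -0.25. An unadjusted limma p under 0.05 was reached by 4 of the 9, against 34 of 82 members. RPL17, at the mouth of the tunnel, had 10.89, 10.53, 10.74 and 10.64 in PF and 10.04, 10.31, 10.30 and 10.26 in HS. No HS array reached the PF arrays, and HS 1 was lowest (log2 fold change -0.47, limma adjusted p = 0.641). RPL39, a small protein inside the tunnel, had 10.05, 9.94, 9.73 and 10.09 in PF and 9.51, 9.60, 9.41 and 9.49 in HS. The groups did not overlap, although PF 1 and HS 1 were not the extremes here (log2 fold change -0.45, limma adjusted p = 0.641). RPL35 was the exception, with a log2 fold change of 0.03. Its PF arrays ranged from 6.61 in PF 3 to 7.79 in PF 4 and enclosed the HS arrays.

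RPL5 and RPL11 enter the large subunit together with its small ribosomal RNA and, when left over, bind MDM2, the ligase that degrades p53. RPL5 had 10.70, 10.33, 10.86 and 10.48 in PF and 9.99, 10.19, 10.26 and 10.22 in HS. RPL11 had 10.16, 9.85, 9.70 and 9.97 in PF and 9.58, 9.51, 9.59 and 9.56 in HS. For both genes all HS arrays were below PF, with log2 fold changes of -0.43 (limma adjusted p = 0.683) and -0.36 (limma adjusted p = 0.683). The cluster of RPL5 lists a transcript on a chromosome other than that of the gene itself, and the other RPL5 cluster differed by -0.42, with groups that overlapped.

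The proteins of the stalk, which recruit elongation factors, differed among themselves. RPLP1 had 10.36, 10.07, 10.04 and 10.26 in PF and 9.86, 9.94, 9.85 and 9.66 in HS, without overlap (log2 fold change -0.36, limma adjusted p = 0.683). RPLP2, its partner in the stalk dimer, had 10.90, 11.24, 10.16 and 11.15 in PF and 10.83, 10.85, 10.77 and 10.83 in HS. PF 3 was the lowest of all arrays and the other PF arrays the highest, so the groups overlapped and the log2 fold change was -0.04 ± 0.22 (SE, limma adjusted p = 0.964). RPL12, at the base of the stalk, differed by -0.11 (limma adjusted p = 0.733).

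The 5 genes with a higher mean in HS were RPL26L1, RPL7A, RPS13, RPS23 and RPL35, and none had p under 0.05. RPS13 had 9.57, 9.82, 9.54 and 9.85 in PF and 10.05, 9.99, 9.63 and 9.85 in HS. The groups overlapped, with HS 1 and HS 2 on top, and the log2 fold change was 0.18 ± 0.13 (SE, limma adjusted p = 0.723). A second cluster with that symbol gave 0.23. RPL7A, a protein of the large subunit, had 7.41, 7.66, 6.85 and 7.55 in PF and 7.79, 8.03, 7.22 and 7.32 in HS. These ranges overlapped widely, and the log2 fold change was 0.22 ± 0.24 (SE, limma adjusted p = 0.798). RPL10, which is added last to the large subunit and is needed for the joining of the subunits, had the highest mean signal of the members, 11.81, 11.76, 11.81 and 11.79 in PF and 11.73, 11.77, 11.81 and 11.81 in HS. Its arrays were nearly level, at a log2 fold change of -0.01 ± 0.078 (SE).

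The 7 paralogs stood apart from their partners in single cases only. No paralog reached p under 0.05 in limma, and 6 of 7 had a lower mean in HS, with a median of -0.16. RPL26L1 had 5.68, 5.86, 4.64 and 5.32 in PF and 5.87, 5.82, 5.46 and 5.85 in HS. PF 3 was far below all other arrays, and the groups overlapped (log2 fold change 0.38 ± 0.25, SE, limma adjusted p = 0.715). Its partner RPL26 was at -0.35 (limma adjusted p = 0.690). RPL22L1 had 9.59, 8.70, 8.29 and 8.76 in PF and 8.23, 8.68, 8.69 and 8.43 in HS, with PF 1 far above the rest. Its log2 fold change was -0.33 (limma adjusted p = 0.741), and that of its partner RPL22 was -0.35 (limma adjusted p = 0.683). The remaining pairs had log2 fold changes of -0.29 for RPL3 and -0.25 for RPL3L, -0.40 for RPL7 and -0.16 for RPL7L1, -0.01 for RPL10 and -0.11 for RPL10L. RPS27 was at -0.15 and RPS27L at -0.19, RPS4X at -0.08 and RPS4Y1 at -0.05. RPL3L is known from striated muscle and RPL10L from testis, and both had mean signals under 5. The differences within pairs were not tested.

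The size of the difference varied with the signal of the cluster. Member signals ranged from 3.37 (RPL10L) to 11.8 (RPL10), with a median of 9.59. Members with a mean from 8 to 9 had a median log2 fold change of -0.34 (n = 12), those from 9 to 10 one of -0.30 (n = 22) and those from 10 to 11 one of -0.28 (n = 19). All of these were lower in HS except RPS13. Members with a mean from 5 to 8 had a median of -0.15 (n = 13). Of these, 10 were lower in HS, and RPL26L1, RPL7A and RPL35 were higher. The 9 genes at 11 or above, such as RPL23, RPL12 and RPS2, were all lower, with a median of -0.09. RPL37A was the lowest among them, at -0.30 and without overlap between groups. Below 5 stood 7 genes (RPL10L, RPS23, RPL30, RPS14, RPL38, RPL24 and RPL3L) with a median of -0.11. Of the weak clusters, RPL24 had 4.72 ± 0.22 (SD, n = 4) in PF, with PF 1 highest, and 4.06, 4.19, 4.42 and 4.29 in HS. All its HS arrays were below the lowest PF array at 4.52 (log2 fold change -0.49, limma adjusted p = 0.683). Signals of different clusters depend on their probes and were not compared as amounts of RNA.

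**Figure D4:**
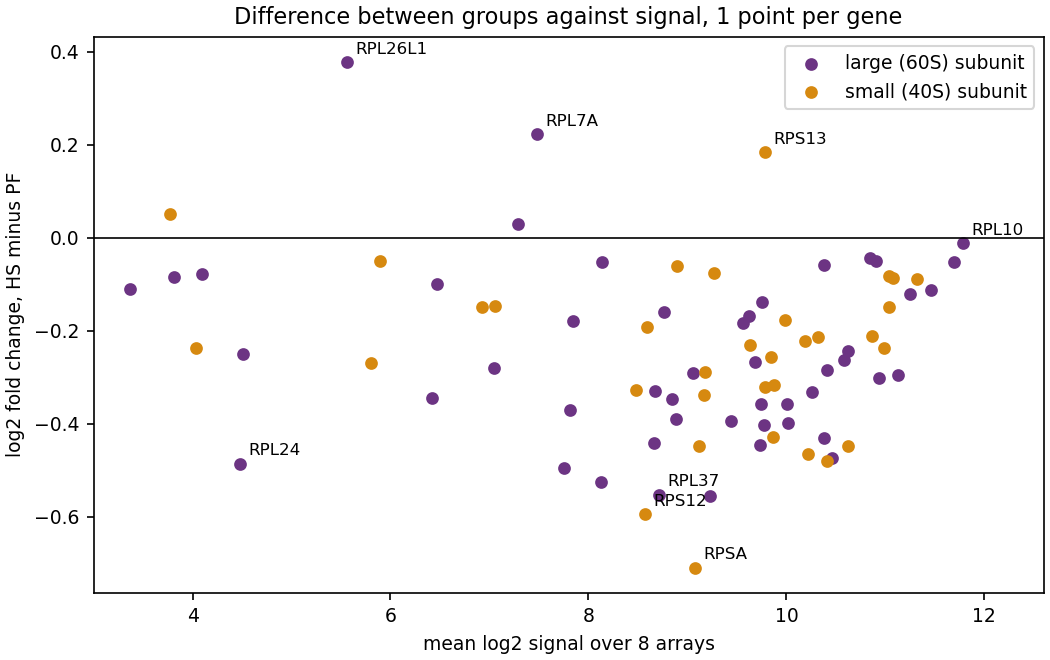
Log2 fold change (HS minus PF, y axis) of each cytosolic ribosomal protein gene against its mean log2 signal over 8 arrays (x axis), coloured by subunit. The lowest value is that of RPSA at -0.71, and the 9 genes at 11 or above have a median of -0.09, with RPL37A lowest among them at -0.30.

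The spread within groups was smaller in HS than in PF for 62 of 82 members (75.6%), against 75.5% of all clusters. Among clusters with a mean of at least 8, it was smaller for 79.0% of the members and for 88.5% of all clusters. The median SD of a member was 0.19 in PF and 0.11 in HS.

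Ribosomal protein genes have many processed copies in mammalian genomes, so other clusters with the same symbols were examined. Of 23 further clusters, 20 were lower in HS and 9 had p under 0.05 in limma, all lower, with a median of -0.19. However, 8 of the 23 list the same transcript as the chosen cluster, and 1 of these, of RPL23A, holds the same values on every array. Of the 15 that list another transcript, 12 were lower, 5 of them with p under 0.05, and 13 had the sign of the chosen cluster. The second cluster of RPL39 had 9.89, 9.55, 9.24 and 9.79 in PF and 8.97, 9.04, 8.90 and 9.01 in HS. It was the only further cluster past the methods' thresholds (log2 fold change -0.63, limma adjusted p = 0.641). Coordinates were given for 23 of the chosen clusters, and 6 of these (RPL5, RPL15, RPL21, RPL36, RPS15A and RPS26) listed a transcript on another chromosome than the RefSeq gene of that symbol. All 6 were lower in HS with a median of -0.24, and of the 76 other members 71 were lower with a median of -0.25.

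Other genes of the translation machinery were set beside the ribosomal proteins. Of 15 further genes known for a TOP motif, 12 were on the array. All 12 were lower in HS, against 54.0% of all clusters, with a median of -0.15. Their mean was 9.93, 9.60, 9.73 and 9.66 in PF 1 to 4 and 9.50, 9.51, 9.59 and 9.57 in HS 1 to 4. PF 1 was highest, and against the mean of PF 2 and PF 4 the HS mean differed by -0.09 instead of -0.19. At p under 0.05 in limma 3 were lower, against 2.81% of all clusters. They were EEF1B2, a subunit of the elongation factor exchange complex (-0.51), the nucleolar chaperone NPM1 (-0.38) and BTF3, part of the complex that binds nascent chains (-0.27). These were named after their values were seen. Of 53 factors of ribosome assembly, 34 were lower and 19 higher, with a median of -0.07 and only UTP6 under p of 0.05 (-0.26). Of 58 genes with an EIF symbol, 46 are translation initiation factors, and these had a median of 0.03 (20 lower, 26 higher). The other 12, kinases of eIF2, Argonautes and eIF4E-binding proteins, had a median of 0.10 (4 lower). None of the 58 had p under 0.05 in limma, before or after adjustment. For the 76 mitochondrial ribosomal proteins, which build the separate ribosome of that organelle, the median was 0.07, with 23 lower and 53 higher. Their mean was 7.15, 7.22, 6.61 and 7.04 in PF 1 to 4 and 7.18, 7.18, 6.96 and 7.09 in HS 1 to 4. PF 3 was the lowest array, and against the mean of PF 2 and PF 4 the HS mean differed by -0.03. MRPS6 (0.77, limma adjusted p = 0.683) was the only mitochondrial ribosomal protein past the methods' thresholds. No test was made between these lists, and they share all 8 arrays.

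**Figure D5:**
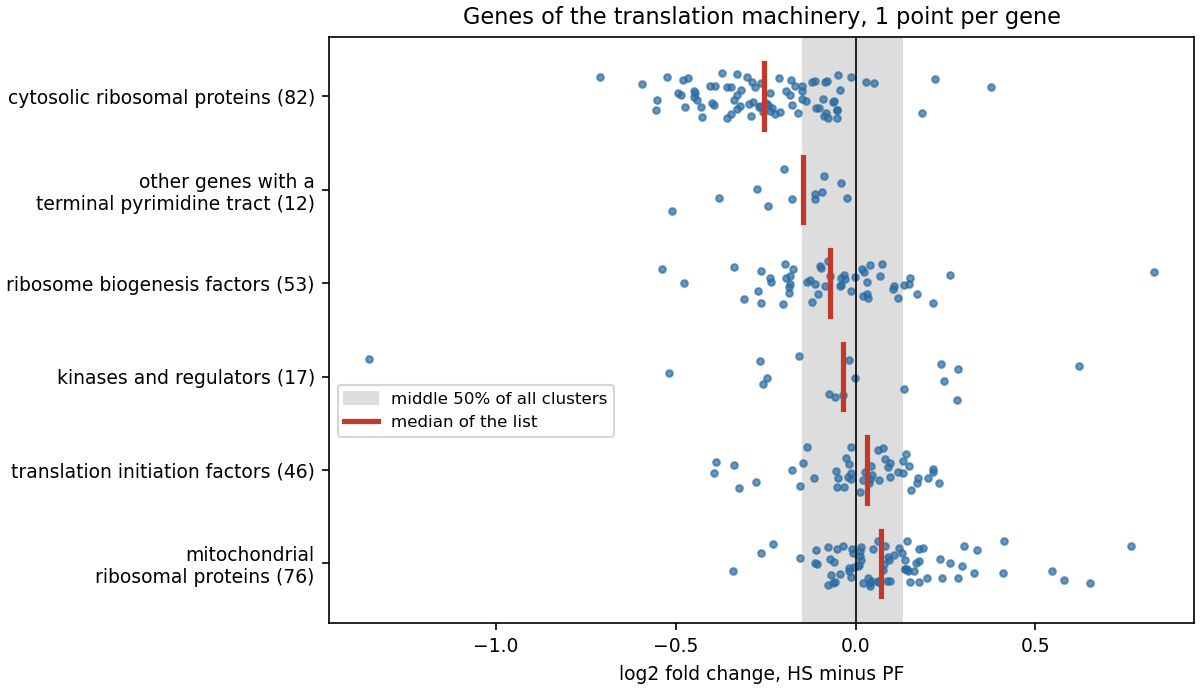
Log2 fold change (HS minus PF, x axis) of each gene in lists of the translation machinery (rows, number of genes in parentheses), with the median of each list as a red line and the middle 50% of all clusters as a grey band. The median lies at -0.25 for cytosolic ribosomal proteins and at 0.07 for mitochondrial ribosomal proteins.

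Among 17 kinases, transcription factors and RNA-binding regulators of ribosome production, 11 were lower in HS, against 54.0% of all clusters. MYC, a transcription factor that drives ribosomal protein and ribosomal RNA genes, had 7.88, 6.99, 7.92 and 6.74 in PF and 5.37, 6.06, 7.32 and 5.36 in HS. HS 3 lay within the PF range and the other HS arrays below it. MYC was the only gene of this list past the methods' thresholds (log2 fold change -1.35 ± 0.47, SE, limma adjusted p = 0.683). LARP4, which binds poly(A) tails, had a higher mean in HS and an unadjusted p under 0.05 (log2 fold change 0.24, limma adjusted p = 0.683).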

How the data were processed

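RNA of mural granulosa cells was hybridised to Affymetrix Bovine Gene 1.0 ST arrays, 1 per cow. The deposited values are log2 signals that the authors computed in Affymetrix Expression Console with the RMA algorithm (background correction, quantile normalization over the 8 arrays, summary to transcript clusters). Per the labels, groups had been compared in Transcriptome Analysis Console 3.0. Values lay between 0.89 and 12.5, array medians between 5.27 and 5.44, and the deposited tables differed by at most 1.8e-15. Of 26773 clusters, 20378 had 1 symbol, 196 several and 6199 none. No filter was set on weak signals, and clusters with several symbols were left out of the members. Precision is limited by the number of arrays.

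The fit of HS against PF used limma 3.58.1 (lmFit, eBayes; R 4.3.3) on all clusters, unpaired as in the methods, with Benjamini-Hochberg adjustment over all clusters. The procedure was tested on simulated data. Single genes were also given an exact permutation test over arrays. Coordinates are those of the array annotation (UMD3.1), and gene positions of RefSeq (ARS-UCD2.0) served only to compare chromosomes, with all 82 symbols matched.

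The members, the gene lists and the alternatives were chosen with earlier results of these data known, and the grouping by role and the repeat without PF 1 and HS 1 after the values had been seen. Genes given with values were the candidate reference genes RPLP0 and RPS18, RPSA, RPL39 and RPS6. The same rule took up to 12 members with the smallest p and the 5 highest and 5 lowest log2 fold changes. It also took the 3 highest and 3 lowest means, the 3 largest SDs, paralog pairs and the stalk. Of the lists on translation, genes with an unadjusted p under 0.05 in limma were given. In the marker lists, genes past the methods' thresholds were counted, and named without values for granulosa and leukocytes only. RPL5 and RPL11 were added for their role. EIF symbols were split into initiation factors and other genes after the values had been seen. RPSA and RPL39 were in this rule because the study lists them, so their values are not independent of that choice.

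Alternatives were the one-way analysis of variance, eBayes with an intensity trend, array weights, the replicate number as a block, a mean log2 of at least 5, restriction to clusters that carry a symbol, removal of the 183 clusters that repeat an earlier one, subtraction of array medians, a second quantile normalization, the series table, other clusters of a symbol, each array left out in turn and pairs of arrays left out.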

Additional observations from a re-analysis of the deposited data

Results flagged for a closer look

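In 82 groups of 4 arrays, the highest or the lowest array was compared with the rest of its group, and 10 stood apart by Dixon's test at the 95% level. Chance gives about 1 in 20 for unselected, independent groups. The groups here were neither, since their genes were chosen partly by their values and share the same arrays. The 10 can therefore not be set against that rate. Ribosomal protein means were among the 10: PF 1 was highest in the mean of all members (9.21), and HS 1 was lowest in the mean of the small subunit (8.92). In PF, the highest array was PF 1 for RPL29 (9.19), RPS27 (7.37) and RPS7 (9.47). In HS, the lowest array stood apart for RPL17 (10.04 in HS 1), RPL26L1 (5.46 in HS 3), and for RPL37 (8.30) and RPS12 (8.13), both in HS 4. For RPS23, HS 2 was highest at 4.29, a weak signal.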

How the results depend on the processing

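The median log2 fold change of the members stayed below 0 under all alternatives run, from -0.27 to -0.19 with 1 array left out. With 1 array left out, 1 to 6 members passed the methods' thresholds (6 without PF 2), 22 to 37 had an unadjusted p under 0.05 in limma, 4 to 8 were higher in HS, and 333 to 1566 clusters were called over the array (1566 without PF 2), against 591 with all arrays. Without PF 1 and PF 3, 0 members passed the thresholds, 20 had p under 0.05 and 8 were higher in HS. With PF 1 and HS 1 left out, added after seeing the data, these were 0, 12 and 11, with 239 clusters called. Subtracting array medians gave 1, 22 and 11, and moved the median of all clusters from -0.02 to 0.04. Of all clusters, 41.8% were then lower in HS, and 1.6% had p under 0.05 in that direction. Quantile normalization once more put 5 members past the thresholds. The analysis of variance called 355 clusters. Of members with a mean of at least 8, 1 was higher in HS. The causes were not tested.

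Replicate numbers did not pair the arrays: deviations of same-numbered arrays correlated at -0.27, 0.21, 0.08 and 0.0064. With the replicate number as a block, 26 members had p under 0.05 instead of 34 in limma, and 669 clusters were called. Of all clusters, 2.95% then had p under 0.05 and a lower mean in HS.

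For the genes given with values, 717 of 777 alternatives kept direction and side of the threshold, 16 lost the threshold, 14 gained it and 30 changed sign, all with small or widely spread differences. With array medians subtracted, log2 fold changes became 0.045 for RPL10, 0.0054 for RPL23, 0.014 for RPLP2 and 0.0071 for RPS4Y1. Quantile normalization once more gave 0.0020 for RPL10 and -0.00016 for RPL35, and array weights gave -0.30 for RPL35 and 0.057 for RPS4X. Without PF 1 and PF 3, RPL10 was at 0.0065, RPL35 at -0.26, RPL7A at -0.018, RPS27L at 0.12 and RPS4X at 0.074. With PF 1 and HS 1 left out, RPL10 was at 0.0099, RPL22L1 at 0.014, RPL7L1 at 0.054, RPS23 at 0.13, RPS27 at 0.050 and RPS27L at 0.11. The second cluster of RPS27 gave 0.011. With 1 array left out, ranges crossing 0 were -0.024 to 0.0043 for RPL10, -0.27 to 0.10 for RPL30, -0.19 to 0.20 for RPL35, -0.27 to 0.019 for RPL7L1, -0.28 to 0.082 for RPLP2, -0.11 to 0.12 for RPS23, -0.35 to 0.030 for RPS27L and -0.17 to 0.088 for RPS4Y1. Those of RPL22L1 (-0.51 to -0.079) and RPS27 (-0.22 to -0.027) did not.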

Other observations

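Ribosomal protein symbols also stood on 8 clusters that carry several symbols and belong to no comparison above. The cluster shared by RPL35A and a locus without a gene name lay between 4.71 and 5.58 in PF (log2 signal) and between 4.37 and 4.67 in HS, a log2 fold change of -0.41 (limma adjusted p = 0.683). RPL36AL, a paralog of RPL36A, shares its symbol field with RPL36A on a pair of clusters, which had log2 fold changes of -0.34 and -0.21. A pair shared by RPL23A and another locus gave -0.09 and -0.13. The remaining 3 clusters, shared by RPL39 and another locus, held the same values on every array as the RPL39 cluster described above (-0.45).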
